A study of Mus musculus with 2 samples.

Results

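The AP-1 transcription factors described here are 10 mouse genes of the basic leucine zipper class, namely Fos, Fosb, Fosl1 and Fosl2 (FOS), Jun, Junb and Jund (JUN), Atf3 (ATF), Maff (MAF) and Batf (BATF). They were taken by name from the 21938 protein-coding genes of GENCODE release M21, and every peak within 10 kb of any of their annotated transcript starts was examined. The libraries are H3K4me3 ChIP-seq of bone marrow-derived macrophages, primary cells cultured from C57BL/6J marrow, that had received no stimulus. There were 2 biological replicates in this 1 group, each begun with 10 ng of DNA. The labels name a biosample of its own for each replicate and 1 donor entry for both, with sex not collected and age unknown or not collected. Nothing in the labels says whether separate animals were used, so the spread between the replicates may be technical. With 1 condition and 2 replicates no test was made, and the values below are descriptions. The read depth of the libraries is unknown, because the deposited lists hold peaks and no read counts.

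AP-1 is a dimer. FOS proteins bind DNA only with a partner, usually a JUN protein, while JUN proteins also pair with themselves and with ATF, MAF and BATF proteins. Several of these genes are immediate early genes, transcribed within minutes of a stimulus from promoters that are already open, and in macrophages they are switched on by microbial products through the MAP kinases. H3K4me3, trimethylation of lysine 4 on histone H3, lies around active and poised starts, mostly on the nucleosomes just downstream of the start, and broad domains of it are known at genes that define a cell type. The mark reports on a start, and not on how much RNA or protein a gene gives.

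Genes with a peak within 1 kb of any start in both replicates are called marked. Its domain was the widest run of peaks separated by at most 1000 bp that touched such a window. Markers of macrophages and of other cell types were looked up with the same call. Marked genes included 7 of 7 macrophage markers (Csf1r, Adgre1, Cd68, Lyz2, Itgam, Mertk and Spi1), against 49.5% of all protein-coding genes. No peak of either replicate lay at the starts of 3 T cell, 3 B cell, 3 fibroblast, 3 neutrophil and 2 endothelial markers. Monocyte and dendritic cell markers were not looked up, so the call does not tell macrophages from those cells. Replicate 1 had 20031 peaks over 25.5 Mb and replicate 2 had 16376 peaks over 17.75 Mb, and domains were usually wider and folds higher in replicate 1.

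The promoter sequences of 6 members show the kinds of start found in this family. Fos and Batf are given because their whole upstream window, or nearly all of it, lay in a peak. In Jun and Atf3 a gap between peaks runs into the window, in Jund it held no peak base, and in Maff the replicates differed. The sequences are the bases before the RefSeq start on the GRCm38.p6 assembly, 5′ to 3′ on the strand of the gene, without bases that GENCODE places in an exon. RefSeq promoters were matched for 9 of the 10 members, and Fosl1 had no entry. Capitals mark a TATA box (TATAAA), the CCAAT box, a cyclic AMP response element (TGACGTCA) or the variant TGACATCA, known from the human JUN promoter as jun1, each read on both strands.
Fos (chr12:85473640-85473889, plus strand): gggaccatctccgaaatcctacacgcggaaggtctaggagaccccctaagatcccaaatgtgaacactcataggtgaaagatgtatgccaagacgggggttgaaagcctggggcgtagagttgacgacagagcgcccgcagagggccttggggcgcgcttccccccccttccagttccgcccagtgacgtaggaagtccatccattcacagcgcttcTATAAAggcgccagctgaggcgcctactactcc
Batf (chr12:85686470-85686668, plus strand): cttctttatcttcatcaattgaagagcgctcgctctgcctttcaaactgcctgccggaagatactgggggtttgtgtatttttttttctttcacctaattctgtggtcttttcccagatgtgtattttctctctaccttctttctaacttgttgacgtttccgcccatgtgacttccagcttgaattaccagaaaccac
Jun (chr4:95052223-95052472, minus strand): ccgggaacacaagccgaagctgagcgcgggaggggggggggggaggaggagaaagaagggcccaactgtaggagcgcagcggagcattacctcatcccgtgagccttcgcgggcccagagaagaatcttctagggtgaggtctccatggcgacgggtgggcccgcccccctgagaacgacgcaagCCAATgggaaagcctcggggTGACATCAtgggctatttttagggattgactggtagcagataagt
Atf3 (chr1:191183341-191183583, minus strand): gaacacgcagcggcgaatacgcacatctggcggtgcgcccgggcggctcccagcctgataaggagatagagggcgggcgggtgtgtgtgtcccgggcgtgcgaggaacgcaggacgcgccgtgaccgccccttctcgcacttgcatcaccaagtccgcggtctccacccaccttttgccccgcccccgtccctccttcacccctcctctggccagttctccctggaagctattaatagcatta
Jund (chr8:70697489-70697738, plus strand): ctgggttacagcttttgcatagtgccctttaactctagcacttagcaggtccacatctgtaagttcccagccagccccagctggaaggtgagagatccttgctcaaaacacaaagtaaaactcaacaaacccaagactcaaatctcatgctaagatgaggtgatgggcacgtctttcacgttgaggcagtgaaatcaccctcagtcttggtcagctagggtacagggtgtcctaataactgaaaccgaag
Maff (chr15:79347270-79347519, plus strand): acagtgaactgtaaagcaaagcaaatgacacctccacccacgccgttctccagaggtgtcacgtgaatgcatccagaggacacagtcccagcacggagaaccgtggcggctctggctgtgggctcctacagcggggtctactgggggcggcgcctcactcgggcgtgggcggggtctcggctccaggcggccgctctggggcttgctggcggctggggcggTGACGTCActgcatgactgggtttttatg

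Of the Fos window, 250 bases lay in a peak in replicate 1 and 250 in replicate 2. For Batf these were 199 and 185 of 199 bases. The Jun window had 138 and 83 of its 250 bases in a peak, and the Atf3 window 29 and 0 of 243. For Jund no base lay in a peak in either replicate, and for Maff there were 250 bases in replicate 1 and 0 in replicate 2.

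Positions of the motifs count the RefSeq start base as 0. The TATA box of Fos lay at −33 to −28, and the Junb window held TATAAA at 0 to 5. RefSeq places the Junb start at −30 bp of the GENCODE start, so this TATAAA lies upstream of the GENCODE start. In Jun the TGACATCA element lay at −45 to −38 and a CCAAT box at −65 to −61. Maff had TGACGTCA at −29 to −22 of its second start, and TGACATCA at −45 to −38 of its last start, which is not printed. Junb had a CCAAT box at −36 to −32, and Atf3 had one on the other strand at 5 to 9, past the printed bases. Over all 20150 protein-coding promoters of the same 300 bp length, TATAAA occurred in 12.1%, CCAAT in 37.8%, TGACATCA in 3.03% and TGACGTCA in 2.31%. The AP-1 element itself, TGACTCA, read on both strands, occurred in 4.65% of those promoters and in 0 of the 11 windows of the members. The CArG box, the binding sequence of serum response factor, occurred in 1.51% and likewise in 0 member windows. The serum response element of Fos is known to lie farther upstream than these windows reach. GC boxes (GGGCGG), left in lower case, occurred in 47.8% of the promoters. They do not overlap the capitals, and a match of letters shows no binding.

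All 10 AP-1 genes were marked in both replicates, in a background where 49.5% of protein-coding genes were. Widening the window to 10 kb left the count at 10 of 10, and the background at 54.4%. The median domain of the members was 3482.5 bp wide in replicate 1 and 2176.5 bp in replicate 2, with an SD of 923 bp between these 2 medians. The median of the 10 mean widths was 2813 bp. Over the 10869 marked genes the median of the mean widths was 1946.5 bp, with an interquartile range from 1430.5 to 2546.5 bp. Of the members, 7 were wider than that median and 3 (Batf, Maff and Fosl1) were narrower. Mean widths of at least 4 kb were found at Atf3, Jun and Fosl2, 3 of 10 members, where 4.69% of marked genes had one. Fosl2 passed through replicate 1 (6361 bp) and not through replicate 2 (2450 bp) or the pooled list (3796 bp). Without joining of peaks, Atf3 (4233.5 bp) was the only member to pass, with Fosl2 at 3137 bp and Jun at 2575 bp. The folds of the members were not higher than those of other genes by this description: the median of the members' highest fold was 36.7 in replicate 1 and 13.9 in replicate 2, against 38.9 and 14.9 over all marked genes. Folds are the values that the authors gave their peaks, and genes are ranked by fold only within a list. Folds of the 2 replicates are set side by side only to describe the shift between their lists.

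**Figure D1:**
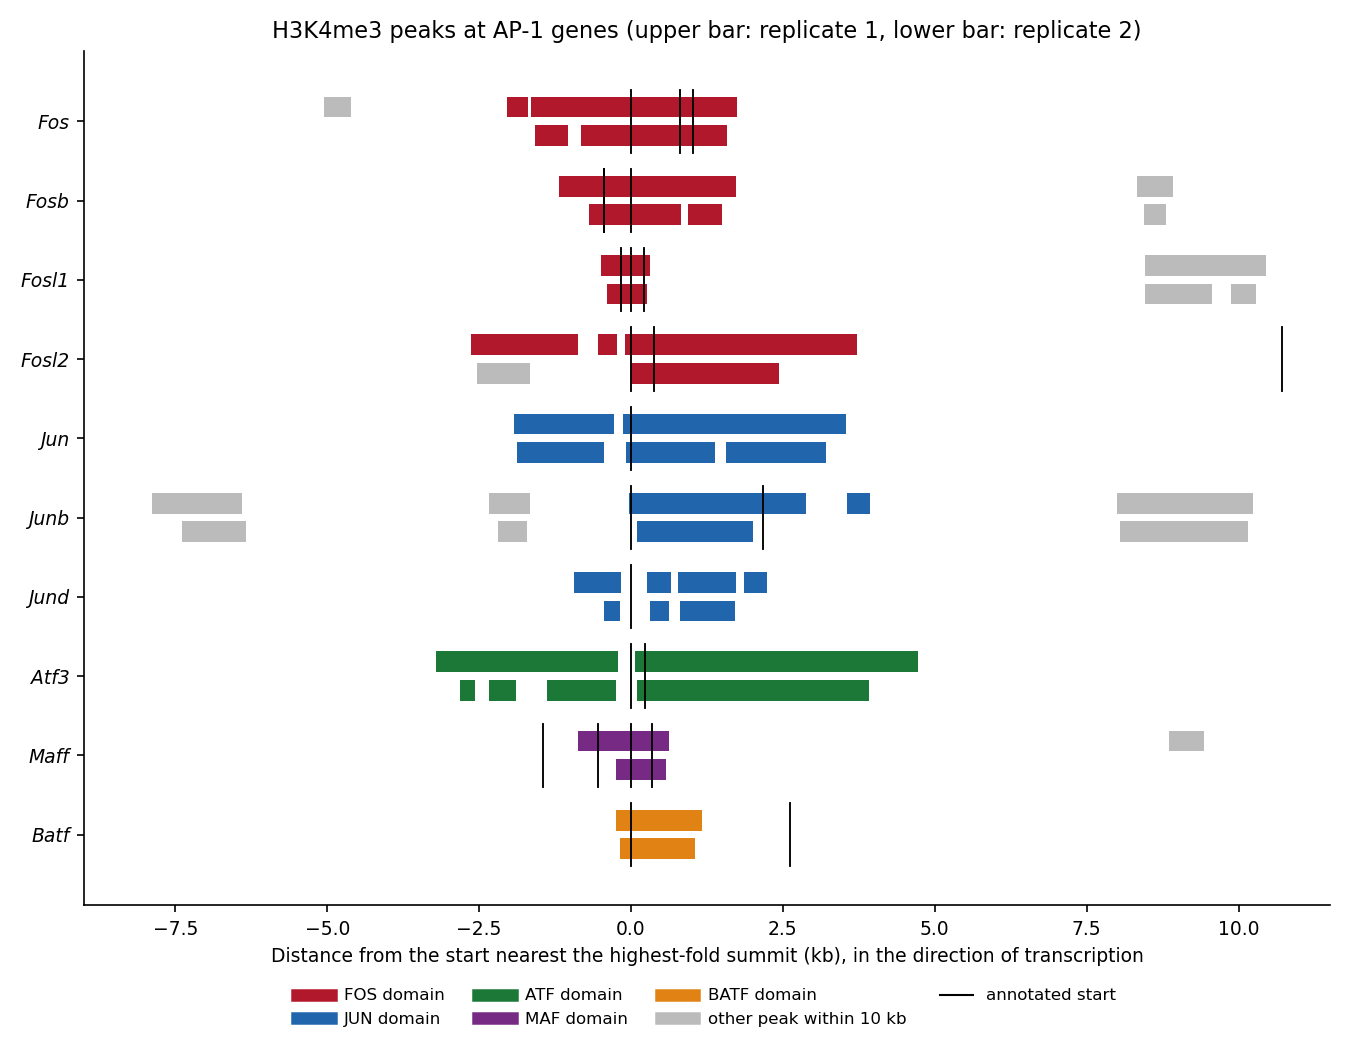
Peaks of both replicates at the 10 AP-1 genes. The horizontal axis is the distance in kb from the start nearest the highest-fold summit, in the direction of transcription. For each gene the upper bar is replicate 1 and the lower bar replicate 2, coloured bars form the widest domain, grey bars are other peaks within 10 kb and vertical lines are annotated starts. The upstream start of Atf3 and the peaks near it lie outside the axis. The domains of Atf3 and Jun lie on both sides of a gap at or beside the start, with the longer side downstream. Those of Fosl1, Maff and Batf are single short peaks.

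The FOS genes ranged from one of the widest domains in the family to the narrowest. Fos (chr12:85473890-85477273, plus strand), the founding immediate early gene, had a domain of 3780 bp in replicate 1 and 3165 bp in replicate 2, or 3472.5 bp ± 435 (SD, n = 2). It reached from −2041 to 1738 bp of the start in replicate 1 and from −1585 to 1579 bp in replicate 2, so it was nearly symmetrical about the start. These widths stood at the 90.9th and 92.1st percentile of marked genes, while its folds of 44.7 and 19.3 stood at the 66.6th and 76.4th. The highest summit lay 437 bp into the gene, in intron 1, in replicate 1, and 268 bp into it, in the coding part of exon 1, in replicate 2. A further peak of replicate 1, from −5055 to −4606 bp with a fold of 6.12, was also in the pooled list but was called neither in replicate 2 nor in the replicated list. Fos thus had its main domain in both replicates, and the upstream peak rests on replicate 1.

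Fosb (chr7:19302696-19310051, minus strand), the paralog of Fos whose truncated splice form is known from neurons, was 2915 bp wide in replicate 1 and 2185 bp in replicate 2, or 2550 bp ± 516 (SD, n = 2). Its folds of 30.6 and 12.7 stood at the 30.6th and 37.2nd percentile, below the median of marked genes in both replicates. Of its 7 transcripts, 6 begin within 7 bp of the 5′ end, and the start nearest the summit was that of Fosb-206, 451 bp farther in. The summit lay 1136 and 1207 bp beyond that start, in intron 1, and all starts of the gene lay inside a peak in both replicates. Fosb was therefore wider and lower than the typical marked gene.

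Fosl2 (chr5:32135801-32157842, plus strand) encodes Fra-2, a FOS protein without the strong activation domain of Fos. Its domain was 6361 bp wide in replicate 1 but 2450 bp in replicate 2, or 4405.5 bp ± 2765 (SD, n = 2), the largest spread between replicates of any member. In replicate 1 the domain was made of 3 peaks from −2641 to 3719 bp. Replicate 2 had 1 peak from −7 to 2442 bp and a separate peak from −2535 to −1661 bp (fold 8.74), which lay too far away to be joined. That upstream peak lies at the start of Gm10463, annotated as a transcript to be experimentally tested on the opposite strand. In the pooled list Fosl2 had 3796 bp in 1 peak. Its folds of 38.1 and 15.1 stood at the 48.0th and 51.4th percentile, near the middle of the marked genes, and the summit lay 1204 and 1246 bp downstream, in intron 1. The start of Fosl2-203, a retained intron 10720 bp into the gene, had no peak within 7001 bp in replicate 1 or 8278 bp in replicate 2.

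Fosl1 (chr19:5447547-5455946, plus strand) encodes Fra-1, the other FOS protein without that domain, and was the narrowest member. A single peak measured 801 bp in replicate 1 and 663 bp in replicate 2, or 732 bp ± 97.6 (SD, n = 2), at the 2.24th and 7.52nd percentile. Its folds of 17.7 and 6.53 stood at the 10.2nd and 10.4th percentile. The summit lay 76 bp downstream of the Fosl1-203 start in replicate 1 and at −172 bp, upstream of it, in replicate 2. That start was chosen by replicate 1, and another coding start, Fosl1-201, lies at −158 bp of it. The summit of the other 9 members was downstream in both replicates. A downstream summit is usual: its lower quartile over marked genes was 35 bp in replicate 1 and 46 bp in replicate 2. More than 8 kb downstream a wider domain began that belongs to the start of Ccdc85b, a neighbour that overlaps the end of Fosl1 on the opposite strand. There replicate 1 had 1 peak with a fold of 24.1 and replicate 2 had 2 with folds of 8.35 and 5.35, so the nearest wide domain at Fosl1 was at another gene's start. A window of 10000 bp took it in and gave Fosl1 1915.5 bp.

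The 3 JUN genes all had domains wider than the median marked gene and differed in how the peaks sit on the gene. Jun (chr4:95049034-95052222, minus strand), a gene with 1 exon, 1 annotated start and 1 transcript, had 5467 bp in replicate 1 and 5079 bp in replicate 2, or 5273 bp ± 274 (SD, n = 2). These widths stood at the 98.0th and 98.8th percentile. Its folds of 53.8 and 18.3 stood at the 89.3rd and 70.9th. The peaks covered 100% of the 3189 bp transcript in replicate 1 and 94.3% in replicate 2. A gap between peaks lay just before the start, from −285 to −139 bp (147 bp) in replicate 1 and from −445 to −84 bp (362 bp) in replicate 2, and the Jun sequence printed above runs through it. The summit lay 270 and 284 bp downstream, in the 5′ UTR. Counted as its widest single peak, without joining across gaps, Jun measured 2575 bp. The antisense transcript Junos starts inside the domain, and a peak over the last part of Jun in replicate 2 also lies within 1 kb of the start of the noncoding Gm12703, so the mark there cannot be assigned to 1 gene.

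Junb (chr8:84974484-84978718, minus strand), an early-induced JUN gene, had 3978 bp in replicate 1 and 1921 bp in replicate 2, or 2949.5 bp ± 1455 (SD, n = 2). The widths stood at the 92.3rd and 58.7th percentile and the folds of 39.8 and 16.6 at the 52.4th and 60.6th. The domain lay almost wholly downstream: it ran from −39 to 3938 bp in replicate 1 and from 95 to 2015 bp in replicate 2. It covered 100% and 94.7% of the 1809 bp of Junb-201, the single-exon coding transcript, with the summit 478 and 470 bp into the coding exon. Part of the difference in width is 1 weak peak of replicate 1 at 3549 to 3938 bp (fold 3.36). Upstream, both replicates had a peak that began at −2341 bp in replicate 1 and −2192 bp in replicate 2 (folds 14.4 and 5.61) and another that began at −7884 and −7396 bp (folds 12.1 and 4.05). Neither lay within 1 kb of an annotated start. With joining over 3000 bp Junb took in the nearer of them and measured 5244 bp. Junb was the only member with 2 such peaks outside its domain in both replicates.

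Jund (chr8:70698949-70700616, plus strand), the JUN gene known for steady expression in resting cells, had 3185 bp in replicate 1 and 2168 bp in replicate 2, or 2676.5 bp ± 719 (SD, n = 2), at the 83.4th and 69.7th percentile. Its folds were low, 21.7 and 7.05, at the 15.3rd and 12.2nd percentile. The domain was made of 4 peaks in replicate 1 and 3 in replicate 2, the widest of which measured 962 and 914 bp. The annotated start fell in the gap between them, which ran from −170 to 259 bp (430 bp) in replicate 1 and from −179 to 314 bp (494 bp) in replicate 2. The highest summit lay 1448 and 1433 bp downstream, in the 3′ UTR of this single-exon gene. RefSeq places the Jund start farther upstream, at −1210 bp, and the nearest peak to that position was 265 and 760 bp away. The antisense Gm11175 lies inside the gene, so the peaks over the gene body are within 1 kb of its start too. Jund was therefore of JUN width only as a sum of short peaks: without joining, its width was 938 bp, below the 1473.5 bp median of marked genes measured the same way.

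Atf3 (chr1:191170296-191218039, minus strand), a stress-induced repressor that in macrophages restrains cytokine genes after Toll-like receptor signals, was the widest member. Its domain measured 7933 bp in replicate 1 and 6734 bp in replicate 2, or 7333.5 bp ± 848 (SD, n = 2), at the 99.7th and 99.8th percentile. Its folds of 51.4 and 22.8 stood at the 84.7th and 91.2nd. The domain reached from −3214 to 4718 bp of the Atf3-201 start in replicate 1 and from −2811 to 3922 bp in replicate 2. Most of it was 1 peak over the end of exon 1 and the first intron, 4651 bp wide in replicate 1 and 3816 bp in replicate 2, with the summit 442 and 465 bp downstream. Upstream peaks were lower, with a highest fold of 19.6 and 6.66. Without joining, Atf3 measured 4233.5 bp and was still the widest member. The start itself lay in the gap between both sides, from −214 to 67 bp (282 bp) in replicate 1 and from −250 to 106 bp (357 bp) in replicate 2.

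Atf3 also has an upstream start, Atf3-203, and it was not marked. Atf3-201 lies 34699 bp inside the gene as annotated from that start, and Atf3-202, 34931 bp inside, was in a peak in both replicates. Around Atf3-203 the nearest peak was 5950 bp away in replicate 1 and 6466 bp in replicate 2. In replicate 1 that peak had a fold of 3.92 and a higher one, with a fold of 26.2, lay 6461 bp away. In replicate 2 the nearest peak had a fold of 10.4. These peaks lie within 1 kb of the start of D730003I15Rik, a lincRNA on the opposite strand. In the pooled and replicated lists, both derived from the alignments of these same replicates, the nearest peak was 6443 bp from Atf3-203. Human ATF3 is also known to be transcribed from 2 alternative promoters.

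**Figure D2:**
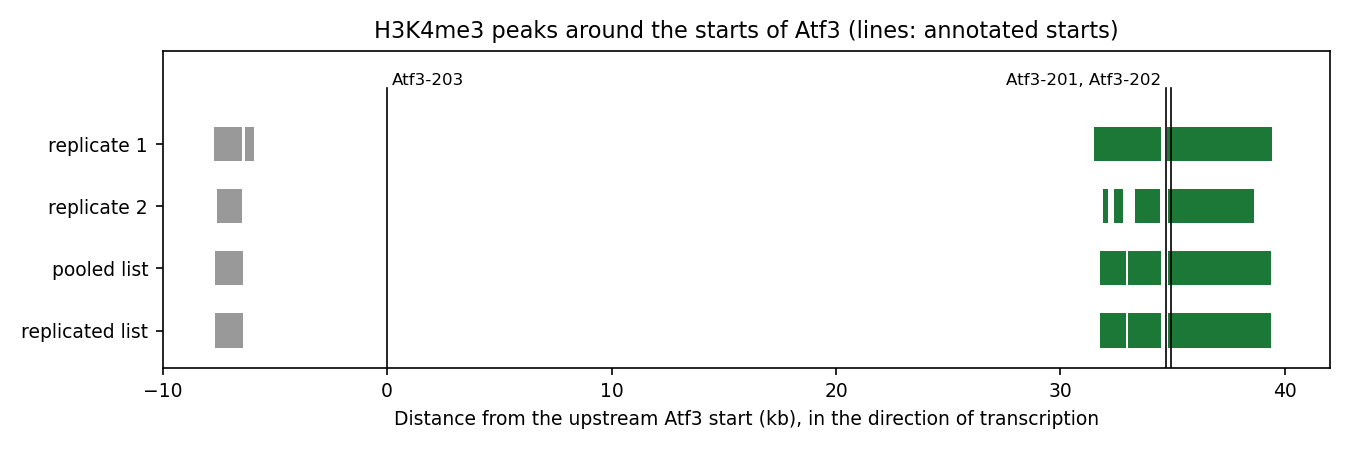
Peaks of the 4 deposited lists around the starts of Atf3. The horizontal axis is the distance in kb from the upstream start, Atf3-203, in the direction of transcription, bars are peaks (green in the domain, grey elsewhere) and lines are annotated starts. In each list the green domain surrounds Atf3-201 and Atf3-202, and Atf3-203 has no peak within 5 kb.

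Maff (chr15:79346621-79359076, plus strand) encodes a small MAF protein, which has no activation domain and pairs with CNC factors such as Nfe2l2. A single peak of 1508 bp in replicate 1 and 823 bp in replicate 2, or 1165.5 bp ± 484 (SD, n = 2), stood at the 19.2nd and 12.2nd percentile. Its folds of 15.1 and 6.79 stood at the 7.32nd and 11.3rd. Maff has 4 annotated starts, at 0, 899, 1443 and 1781 bp from the 5′ end. The peak held the last 3 of them in replicate 1 and the last 2 in replicate 2, and the first start was 566 and 1195 bp from a peak. The start nearest the summit was the third, that of Maff-202, with the summit 103 and 100 bp beyond it in the 5′ UTR. The second start was therefore in a peak in replicate 1 only, and it is its promoter, with TGACGTCA, that is printed above. A peak in the gene body, 8860 to 9431 bp downstream in replicate 1 (fold 5.60), was not called in replicate 2. The pooled and replicated lists, which draw on replicate 1 too, also held it.

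Batf (chr12:85686669-85709087, plus strand) encodes a short zipper protein that pairs with JUN proteins and binds with IRF factors in lymphocytes and dendritic cells. It had 1 peak, 1415 bp in replicate 1 and 1244 bp in replicate 2, or 1329.5 bp ± 121 (SD, n = 2), at the 15.5th and 27.3rd percentile. The folds of 35.3 and 11.1 stood at the 41.1st and 29.2nd. The peak ran from −247 to 1167 bp in replicate 1 and from −185 to 1058 bp in replicate 2, with the summit 205 and 189 bp downstream in the 5′ UTR. The start of Batf-202, a retained intron 2623 bp into the gene, was 1456 and 1565 bp from the nearest peak. Batf was narrow at a fold below the median, though less far below it than Fosl1 and Maff, which were low in both measures.

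**Figure D3:**
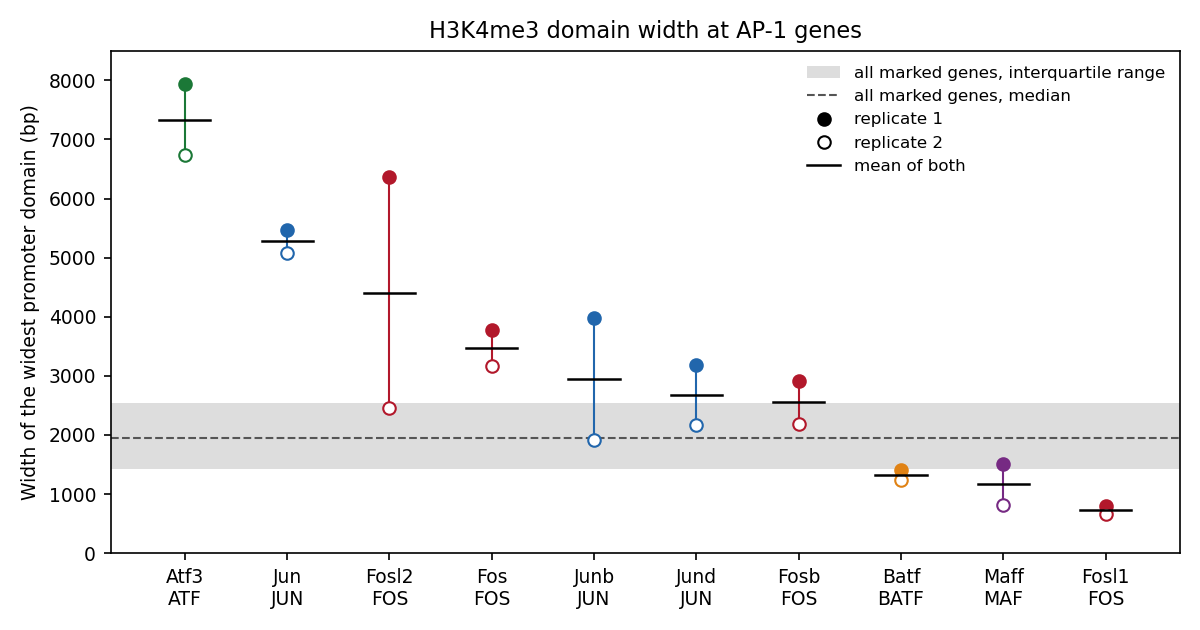
Width of the promoter domain (vertical axis, bp) at each AP-1 gene. Filled points are replicate 1, open points replicate 2 and bars the mean of both, with the median of all marked genes (1946.5 bp, dashed) and their interquartile range (grey). Atf3 and Jun lie above the rest of the family apart from replicate 1 of Fosl2, and Batf, Maff and Fosl1 lie below the median in both replicates.

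Ordered by mean width the members run Atf3, Jun, Fosl2, Fos, Junb, Jund, Fosb, Batf, Maff and Fosl1. The replicate values of Atf3 were both above those of Jun. From Jun to Fosb each neighbour in the order overlapped the next in its replicate values, so that this order is not resolved. Fosb was clear of Batf, Batf overlapped Maff, and Maff was clear of Fosl1. By family, the FOS genes had a median width of 3011.25 bp (732 to 4405.5 bp, 4 genes) and the JUN genes one of 2949.5 bp (2676.5 to 5273 bp, 3 genes). The single ATF gene had 7333.5 bp, the single BATF gene 1329.5 bp and the single MAF gene 1165.5 bp. FOS and JUN therefore did not separate by width, as their ranges overlapped. Their median folds were 34.4 and 13.9 for FOS and 39.8 and 16.6 for JUN in replicates 1 and 2.

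Width and fold did not rank the members alike. Fos, Jun and Atf3 were above the median marked gene in both measures and both replicates. Junb was as well, with a fold close to the median. Fosb and Jund were wide with a fold below the median, Fosl2 was wide at a middling fold, and Batf, Maff and Fosl1 were below the median in both. In replicate 1, 4 members had a fold above the median of marked genes and in replicate 2 there were 5, the difference being Fosl2. The ratio of replicate 1 to replicate 2 had a median of 1.27 for width and 2.47 for fold among the members, against 1.19 and 2.56 among all marked genes. The median shift in fold was thus close to that of all marked genes. For width, 7 of the 10 members had a ratio above the median of marked genes. Fosl2 (2.60), Junb (2.07), Maff (1.83) and Jund (1.47) were above the upper quartile of marked genes, 1.38, and the other members were below it.

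**Figure D4:**
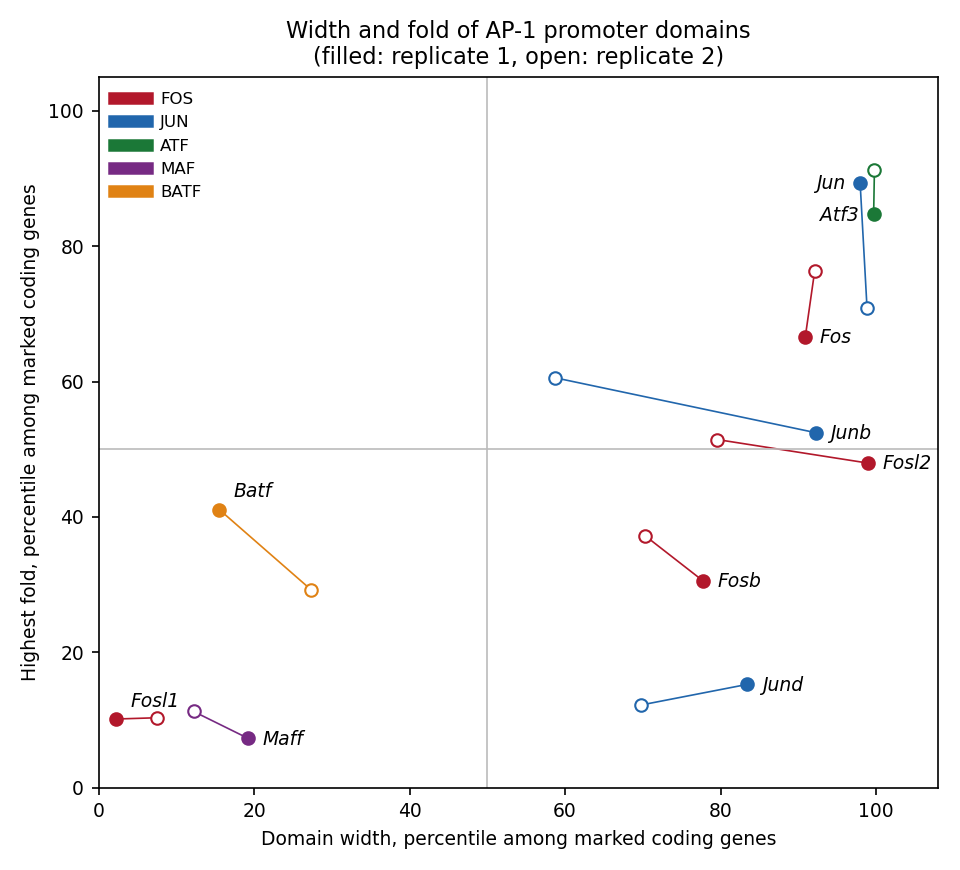
Percentile of domain width (horizontal axis) and of highest fold (vertical axis) of each AP-1 gene among the marked protein-coding genes. Filled points are replicate 1, open points replicate 2, a line joins both points of a gene, colours give the family and grey lines the medians. Fos, Jun, Junb and Atf3 lie in the upper right, Fosb and Jund in the lower right, Fosl2 on the median fold and Fosl1, Maff and Batf in the lower left.

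Where the mark lay on the gene can be compared with all marked genes. The domain held the annotated 5′ end of the gene in both replicates at 7 of 10 members, against 69.4% of marked genes, and the exceptions were Junb, Atf3 and Maff. The start nearest the summit was itself inside a peak in both replicates at 7 of 10, against 59.1%, with Junb, Jund and Atf3 as the exceptions. Domains of at least 2 peaks in both replicates occurred at Fos, Jun, Jund and Atf3, 4 of 10 members, against 29.0%. These counts are near the background shares. The share of the domain downstream of that start had a median of 63.9% among the members and 62.8% among all marked genes.

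Several AP-1 genes are short, and the peaks of their domains took up more of the transcript. A median of 32.4% of the used transcript lay under peaks of the domain at the members, against 5.73% at marked genes. Gaps between joined peaks are not counted as covered. Among the 1397 marked genes whose used transcript is at most 4000 bp long, 5 of them members, the median was 42.3%. The 32.4% is over all 10 members, so it is not the matching value. Those 5 members were Fos, Fosl1, Jun, Junb and Jund, and all but Fosl1 were above 42.3% in both replicates. Jun and Junb were covered almost end to end, Jund to 77.7% in replicate 1 and 70.1% in replicate 2, and Fos to 51.4% and 46.7% of its 3384 bp. Fosl1, with 2557 bp, had 12.2% and 10.2%.

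CpG content also differed within the family. The observed/expected CpG ratio was taken from 1000 bp before the start nearest the summit to 1000 bp after it. It was 0.949 at Fosl2, the 98.1st percentile of marked genes, and 0.852 to 0.858 at Fosb and Jun. At Batf it was 0.332, the 7.56th percentile, against a median of 0.6333 over marked genes. Batf was thus a marked start in CpG-poor DNA. Jund had 0.838, Atf3 0.808, Junb 0.685, Fos 0.658, Maff 0.654 and Fosl1 0.621. For Atf3, Maff, Fosb and Fosl1 that start is not the 5′ end of the gene. For Atf3 the window is at Atf3-201, not at the unmarked upstream start.

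Over all 10 genes, 28 peaks of replicate 1 and 27 of replicate 2 lay within 10 kb of a start. Within 1 kb of a member's own start were 16 and 15 of these. Another 6 and 7 lay within 1 kb of another gene's start only, and 6 and 5 near no annotated start. The peak of highest fold among those at another gene was 8003 to 10242 bp downstream of the Junb start in replicate 1 and 8051 to 10160 bp in replicate 2, at the starts of Prdx2, which encodes a peroxiredoxin, Rnaseh2a, which encodes the catalytic subunit of ribonuclease H2, and Gm49661. Its folds of 40.5 and 17.8 were close to those of Junb itself. A Fosb neighbour, the lincRNA Gm26802, had a peak 8333 to 8924 bp downstream in replicate 1 and 8445 to 8810 bp downstream in replicate 2, with folds of 14.4 and 5.74.

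The series-level lists held 27 peaks (pooled) and 24 peaks (replicated) in the same windows. Of the 16957 peaks of the replicated list, 16890 are identical entries of the pooled list. Equal values in these 2 lists are therefore no separate support. Domain widths in the pooled and replicated lists were equal for 8 of the 10 members, among them Atf3 with 7588 bp, Jun with 5699 bp, Fos with 3372 bp, Batf with 1422 bp, Maff with 1155 bp and Fosl1 with 779 bp. The exceptions were Junb, with 2782 bp in the pooled list and 2112 bp in the replicated list, and Jund, with 3123 and 2645 bp. The gap over the start remained in both lists at Jund (−167 to 256 bp) and at Atf3 (−216 to 71 bp).

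Related zipper genes and the pathway above AP-1 were measured in the same way. Of 16 AP-1 relatives, partners or competitors of the members, 15 were marked, where 49.5% of all protein-coding genes were. Their median width was 2642.5 bp, and 13 were wider than the median marked gene. The widest were Maf, a large MAF factor of macrophages, with 8784 bp in replicate 1 and 8080 bp in replicate 2, Mafg, a small MAF, with 6316 and 4688 bp, and Nfe2l2, the oxidative stress factor NRF2, with 5571 and 4937 bp. Maf was thus wider than Atf3 in both replicates. Within the small MAF genes Mafg was wide where Maff was narrow, and both values of Mafg were above both of Maff. Mafk, with 2600 and 2336 bp, lay between them. Bach2, a repressor of the same class known from B cells, had a peak in replicate 1 only, 286 bp wide with a fold of 5.42.

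All 11 genes chosen from the pathway upstream of AP-1, the MAP kinases, their kinases, the serum response factor complex and the ubiquitin ligase subunit Fbxw7, were marked. The share over all protein-coding genes was 49.5%. The 11 genes had a median width of 2253 bp, and 7 were wider than the median marked gene. Fbxw7, which targets JUN for degradation, had 4076 bp in replicate 1 and 3560 bp in replicate 2. Mapk14, the stress kinase p38 alpha, had 3775 and 3352 bp, and Elk4, a partner of serum response factor, 4179 and 2260 bp. The domains of Atf3 and Jun were wider than each of these 3 in both replicates.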

How the data were processed

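H3K4me3 ChIP-seq peaks of 2 replicates of unstimulated C57BL/6J macrophages were analysed. The authors called pseudoreplicated peaks on each replicate, pseudoreplicated peaks on the alignments of both together (pooled), and a replicated list, per the provenance texts that accompany the deposited lists. In the deposited narrowPeak layout the authors give each peak a fold, which is a ratio, and a −log10 p. Aligner, caller, thresholds and what the fold is relative to: not given in the sources used here. The assembly is mm10 per the labels, and 0 peak ends lay beyond a GRCm38.p6 chromosome. The lists carry no read counts, so neither depth nor the precision it gives is known.

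Transcript starts are those of GENCODE release M21 (21 chromosomes). A protein-coding gene was marked when a peak of each replicate overlapped, by at least 1 bp, the 1000 bp on either side of any of its transcript starts. Peaks within 1000 bp were joined, and the width is the mean over both replicates of the widest joined domain that touched a window. The start used is the protein-coding transcript start nearest the summit of the domain's highest-fold peak in replicate 1. Percentiles are among genes marked in both replicates, except that an alternative with 1 list ranks among the genes marked in that list. Positions count the start base as 0. Promoter sequences are from RefSeq (GRCm38.p6) and equalled the genome at their coordinates. The routine that joins peaks was tested on simulated data. Python 3.11.15, numpy 2.4.6, pysam 0.24.0 and samtools 1.23.1 were used.

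The members and gene lists were chosen with earlier results of these data known, so no test or p-value is given. The text names all members and, from each of 2 gene lists, the 3 widest marked genes, any unmarked and any with a peak in 1 replicate. Mafk is named as well, as the remaining small MAF gene. Neighbouring genes are named where their start is near a peak within 10 kb of a member. Alternatives were other windows, joining distances, start sets, lists, peak cut-offs and overlaps, and each replicate alone.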

Additional observations from a re-analysis of the deposited data

How the results depend on the processing

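All 10 members were marked under each alternative tried except with a single start per gene, its 5′ end, which left 8, without Atf3 and Maff. The median member width moved beyond the spread between replicates in 1 setting, joining over 3000 bp, to 3828 bp. It was 2176.5 bp without replicate 1 and 3482.5 bp without replicate 2. Between 6 and 7 members were wider than the median marked gene in every setting. Without joining, 4 member widths moved down by more than their own SD between replicates. These were Fos at 2893.5 bp, Jun at 2575 bp, Jund at 938 bp and Atf3 at 4233.5 bp, and Atf3 was still the widest. Fosl2, Junb and Fosb fell as well, to 3137, 2422 and 2220 bp, but within their SD. Fosl1, Maff and Batf did not change. Joining over 3000 bp gave Fos 4979.5 bp and Junb 5244 bp. For Fos the rise was in replicate 1 (6794 bp), while replicate 2 stayed at 3165 bp. Fosl2 rose to 5669.5 bp, within its SD, and was then wider than Jun at 5273 bp. A window of 10000 bp gave Fosl1 1915.5 bp, by taking in the neighbouring domain, and the pooled and replicated lists gave Jun 5699 bp. The percentile of the fold moved too: without replicate 2 it was 16.7 at Fosl1, 21.4 at Jund and 14.0 at Maff, against 10.3, 13.7 and 9.30 as the mean of both replicates, and 45.4 at Batf against 35.2. Without replicate 2 the ranking is among the 11747 genes marked in replicate 1. Among the 10869 genes marked in both replicates, the same replicate 1 folds stood at 10.2 (Fosl1), 15.3 (Jund), 7.32 (Maff) and 41.1 (Batf). These moves therefore include a change in the genes compared. Without joining the percentile was 24.3 at Fosb against 33.9. With a window of 10000 bp it was 17.3 at Fosl1. Each of these members stayed below the median marked gene in fold. The cause of the moves in this section, beyond the joining itself and the change in the genes compared, was not tested. No paired analysis was possible because there is only 1 group. Depth is unknown, so a start without a peak may hold H3K4me3 below what these lists call.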
